A study of Mus musculus with 9 samples.

Results

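The Slit and Robo guidance genes described here are 2 secreted ligands, Slit2 and Slit3, and 3 receptors, Robo1, Robo2 and Robo4. They were taken by symbol, 5 of the 32285 genes counted in nuclei of the mouse heart, and all 5 had counts. Robo2 was chosen by its measured values, a low level in endothelial nuclei after injury and a part return with the drug enpatoran. Its levels are therefore given as a description, with no test in any cell class. Robo1, Robo4, Slit2 and Slit3 joined it as family members and were tested.

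Slit proteins are large secreted ligands that bind Robo receptors through leucine-rich repeats and are held at the cell surface by heparan sulfate. Robo receptors have no kinase of their own and steer the actin skeleton through adaptor proteins, turning growing axons and migrating cells away from a Slit source. Robo4 is a receptor of the vascular endothelium known for its part in barrier stability, while Slit2, Slit3, Robo1 and Robo2 take part in heart development.

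Single-nucleus RNA was counted in 9 hearts of male wild-type mice aged 9 to 10 weeks, with 3 hearts in each of 3 groups and 1 library per heart. The NS-Sham hearts had a thoracotomy with saline injections. In NS-I/R hearts the left anterior descending artery was tied for 45 min and then reperfused for 24 h, again with saline, and Enpa-I/R hearts had the same injury with enpatoran, a TLR7 antagonist, at 5 mg/kg. Every mouse had 2 intraperitoneal injections, the first 1 h before surgery, and the time of the second is not the same throughout the labels. None of the mice carried a transgene per the labels, and frozen hearts were powdered, so that injured and remote muscle were mixed in each library.

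The libraries held 19.7 to 39.0 M UMIs (counted RNA molecules), and 41979 nuclei of 56766 barcodes passed the filters. They formed 26 clusters, and all but 1 were named by marker genes, so that "fibroblast-like" and the like are names rebuilt from the counts. The unnamed cluster of 431 nuclei was led by Hspa1a and Hspa1b, and 421 of its nuclei came from NS-I/R. There were 425 barcode sequences that occurred in more than 1 library. NS-I/R replicate 3 stood apart: leaving it out gave the most genes called in every one of the 7 classes tested and in both comparisons. Both comparisons share the 3 NS-I/R hearts, so a low or high value there enters both. Results that turn on replicate 3 are given with and without it. That heart was singled out after the data were seen. Values without it therefore show only how far a result depends on it, and give no support for a difference. Every mean is over 3 hearts (n = 3) with its SD, and CPM are counts per 1000000 UMIs of the class, scaled by TMM (edgeR's library scaling) unless called plain.

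Slit2 (ENSMUSG00000031558, chromosome 5) and Slit3 (ENSMUSG00000056427, chromosome 11) each hold a copy of the miR-218 gene inside an intron on the same strand, which is why that microRNA is shown first. The copies lie at chr5:48223966-48223986 and chr11:35616840-35616860 (GRCm38.p6, plus strand), and both give the same mature miR-218-5p. It was not itself measured by these libraries. Capitals mark its seed, bases 2 to 8, in the RefSeq sequence.
mmu-miR-218-5p: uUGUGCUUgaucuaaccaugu
Letters that pair with this seed, AAGCACA, occurred in the longest annotated 3' UTR (GENCODE vM21, GRCm38) of 2899 of 20659 genes, or 14.0%. Robo1 had 1 such match, Robo2 and Slit2 had 2 each, and Robo4 and Slit3 had 0. The matches in both receptors follow, written 5' to 3' as DNA with the match in capitals. A match describes letters and does not show that the microRNA acts there.
Robo1, UTR bases 986 to 992: ttttggttttaaAAGCACAatcactaa
Robo2, UTR bases 461 to 467: ttatttggtgatAAGCACAaatctcta
Robo2, UTR bases 2787 to 2793: cacggcagacccAAGCACAgcttcttt

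Start-site windows of 300 bases are shown for Slit2 and Slit3, because both ligands were found mainly in fibroblast-like nuclei and behaved differently there, and for Robo2. They are RefSeq windows on GRCm38.p6 from 250 bases before to 50 after the start, 5' to 3' on the gene's strand. Both strands were searched for the letters GGGCGG, known as the GC box, TATAAA, known as the TATA box, CACGTG, a form of the E-box, TGANTCA, the site of AP-1, and CCGGAAGT, the extended core of ETS sites. Matches are in capitals, and overlapping matches were each counted.
Slit2, chr5:47982905-47983204, plus strand: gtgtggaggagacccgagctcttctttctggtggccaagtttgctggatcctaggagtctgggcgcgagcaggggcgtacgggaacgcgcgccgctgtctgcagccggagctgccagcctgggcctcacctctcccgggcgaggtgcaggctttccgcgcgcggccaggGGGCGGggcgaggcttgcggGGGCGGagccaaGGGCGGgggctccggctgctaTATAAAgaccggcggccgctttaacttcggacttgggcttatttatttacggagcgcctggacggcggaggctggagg
Slit3, chr11:35121206-35121505, plus strand: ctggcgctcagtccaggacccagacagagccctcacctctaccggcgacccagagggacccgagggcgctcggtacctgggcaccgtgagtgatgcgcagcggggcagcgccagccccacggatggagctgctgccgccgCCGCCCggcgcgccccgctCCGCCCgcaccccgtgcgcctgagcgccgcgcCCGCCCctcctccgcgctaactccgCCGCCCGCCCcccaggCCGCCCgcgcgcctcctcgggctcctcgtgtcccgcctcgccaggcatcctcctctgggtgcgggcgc
Robo2, first of 3 starts, chr16:75447244-75447543, minus strand: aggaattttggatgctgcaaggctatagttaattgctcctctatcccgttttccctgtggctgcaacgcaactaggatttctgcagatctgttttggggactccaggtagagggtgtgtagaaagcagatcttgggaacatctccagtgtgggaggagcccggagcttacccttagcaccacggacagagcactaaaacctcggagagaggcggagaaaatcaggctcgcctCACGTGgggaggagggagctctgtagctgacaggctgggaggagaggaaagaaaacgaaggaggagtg
The Slit2 window held 3 GC boxes and a TATA box, with 68.0% G or C and 30 CpG. The Slit3 window held 6 GC boxes and no TATA box, with 78.3% G or C and 41 CpG. The Robo2 window shown, that of start 1, held 1 E-box, with 53.3% G or C and 9 CpG. The windows of Robo2 starts 2 and 3 are not shown and held none of the 5 motifs. Start 2 had 45.0% G or C and 5 CpG, and start 3 had 65.0% and 17 CpG. Which Robo2 start is used in these nuclei was not tested, nor was which of them lie within the gene span given below. Over 32851 windows of the same length the medians were 52.7% and 7 CpG, and a GC box was found in 35.66%, a TATA box in 13.62% and an E-box in 7.15%. Robo4, at chr9:37401722-37402021 on the plus strand, had 50.3% G or C, 2 CpG and none of the 5 motifs.

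The 5 genes were found in different classes of nuclei. Fibroblast-like nuclei held 81.6% of the Slit2 UMIs, 73.5% of those of Slit3 and 78.5% of those of Robo1 in NS-Sham, while endothelial-like nuclei held 86.1% of the Robo4 UMIs. Robo2 was shared between endothelial-like nuclei, with 55.1% of its UMIs in NS-Sham, and fibroblast-like nuclei, with 38.9%. The endothelial share of Robo2 was 16.6% of 476 UMIs in NS-I/R and 43.2% of 852 UMIs in Enpa-I/R, against 2010 UMIs in all of NS-Sham.

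**Figure D1:**
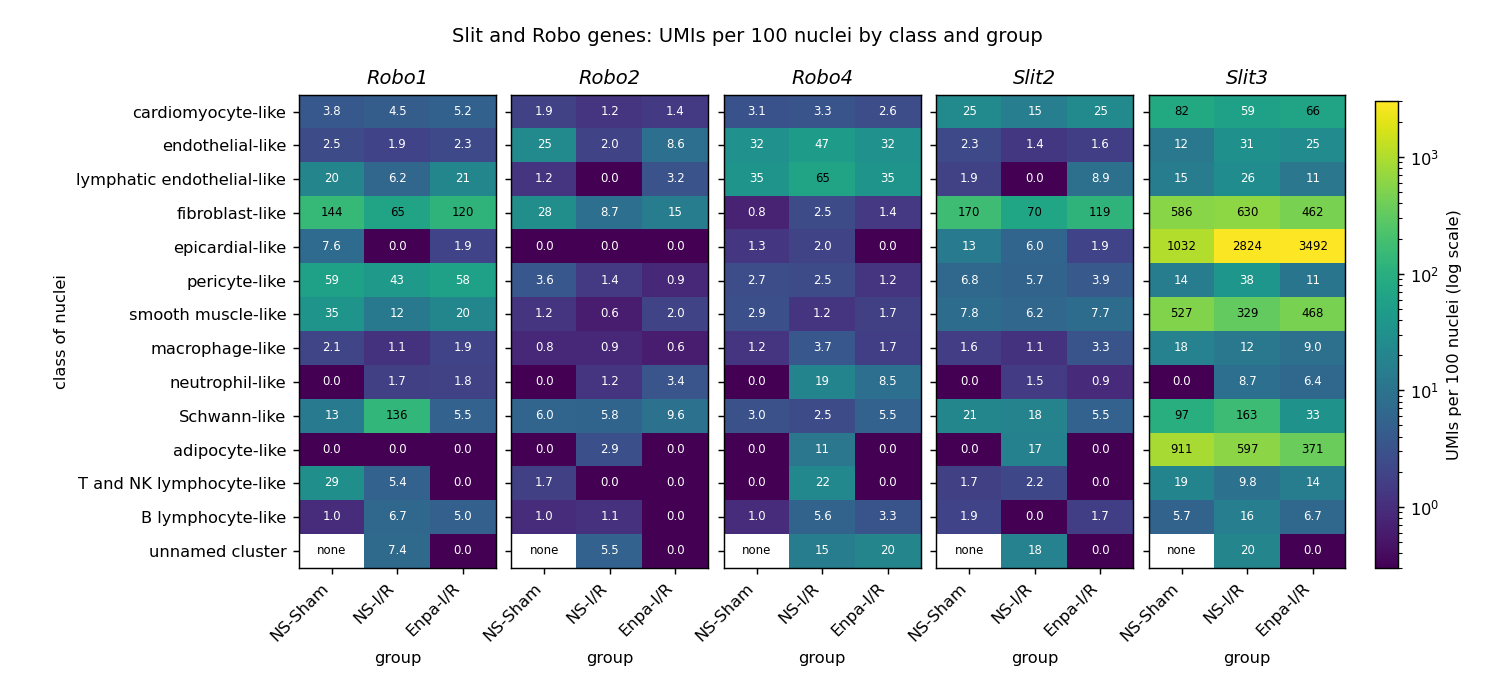
UMIs per 100 nuclei of each of the 5 genes, as a grid of cell class (rows) by group (columns) with nuclei of 3 hearts pooled; colour is on a log scale from 0.3 to 3000 and does not change beyond, the printed number is the value, and "none" marks a group without nuclei of that class. In NS-Sham, Robo4 is highest in the endothelial and lymphatic endothelial classes, Robo1 and Slit2 in fibroblast-like nuclei and Slit3 in the epicardial class, at 1032 UMIs per 100 nuclei.

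Slit2, the ligand best known from axon guidance, was mostly a fibroblast transcript. Its level in fibroblast-like nuclei was 540, 545 and 331 CPM in the 3 NS-Sham hearts, 164, 185 and 173 CPM in NS-I/R, and 277, 288 and 273 CPM in Enpa-I/R. No hearts of different groups overlapped, and NS-Sham replicate 3 lay below the other 2 sham hearts. Slit2 fell in NS-I/R by 1.44 on the log2 scale (SE 0.17, edgeR adjusted p 3.39e-05) and rose in Enpa-I/R against NS-I/R by 0.68 (SE 0.16, edgeR adjusted p 0.0273).

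Within the fibroblast-like class, Slit2 was read cluster by cluster because the clusters took very different shares of the groups. Cluster 9 held 90.0% of the fibroblast-like nuclei of sham hearts, 30.2% of those of NS-I/R and 51.7% of those of Enpa-I/R. Cluster 10, led by the matrix gene Tnc, held 0.29%, 57.9% and 36.0%, and its 8 sham nuclei were too few for a fit. Plain Slit2 levels pooled over hearts in cluster 9 were 505 CPM in NS-Sham, 271 CPM in NS-I/R and 334 CPM in Enpa-I/R, so that the lower level after injury was present inside the cluster that most sham nuclei belonged to. In cluster 11 they were 133, 109 and 275 CPM, and the lower level in NS-I/R was not called there (log2 difference -0.32, edgeR adjusted p 0.52). In cluster 11 Slit2 rose in Enpa-I/R against NS-I/R by 1.31 (edgeR adjusted p 0.0244), whereas in cluster 9 the difference of 0.30 was not called (edgeR adjusted p 0.342). The Enpa-I/R call over the whole class also missed the threshold without any 1 of 5 hearts: edgeR adjusted p was 0.104 and 0.0821 without NS-I/R replicates 1 and 2, and 0.0835, 0.096 and 0.0838 without Enpa-I/R replicates 1, 2 and 3.

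In cardiomyocyte-like nuclei Slit2 was a low transcript, at 19.2, 27.1 and 24.7 CPM in NS-Sham, 14.0, 10.3 and 19.4 CPM in NS-I/R, and 29.9, 18.0 and 19.8 CPM in Enpa-I/R. The highest NS-I/R heart reached the lowest sham heart. Cardiomyocyte-like nuclei lay in different clusters by group: cluster 3 held 66.0% of those of sham hearts, 0.922% of those of NS-I/R and 11.6% of those of Enpa-I/R, and cluster 2 held 0.273%, 51.9% and 22.8%. Slit2 fell by 0.71 on the log2 scale in NS-I/R (SE 0.26, edgeR adjusted p 0.0488), just past the threshold, in a class where 45.3% of 13981 genes were called. The call was lost in 11 of the alternatives tried. Of these, 6 left out a heart, and their edgeR adjusted p was 0.151 and 0.114 without NS-Sham replicates 2 and 3, 0.117 and 0.157 without NS-I/R replicates 1 and 2, and 0.0536 and 0.0615 without Enpa-I/R replicates 2 and 3. The difference of 0.64 between Enpa-I/R and NS-I/R was not called (edgeR adjusted p 0.107) with all 9 hearts and was 0.92 (edgeR adjusted p 0.0112) without NS-I/R replicate 3.

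Slit3, the sister ligand, had a wider range of sources. Epicardial-like nuclei held the most per nucleus, pooling to 1032, 2824 and 3492 UMIs per 100 nuclei over the sham hearts, then NS-I/R, then Enpa-I/R, from 79, 50 and 52 nuclei. Slit3 was among the leading genes of that cluster, and the class had too few nuclei to be tested. Its plain CPM was 2296, 1434 and 2547 in the sham hearts and 3113 to 7711 in the 6 injured hearts, with no overlap. Smooth muscle-like nuclei pooled to 527, 329 and 468 UMIs per 100 nuclei, and fibroblast-like nuclei to 586, 630 and 462. Adipocyte-like nuclei, only 51 in all, pooled to 911, 597 and 371.

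**Figure D2:**
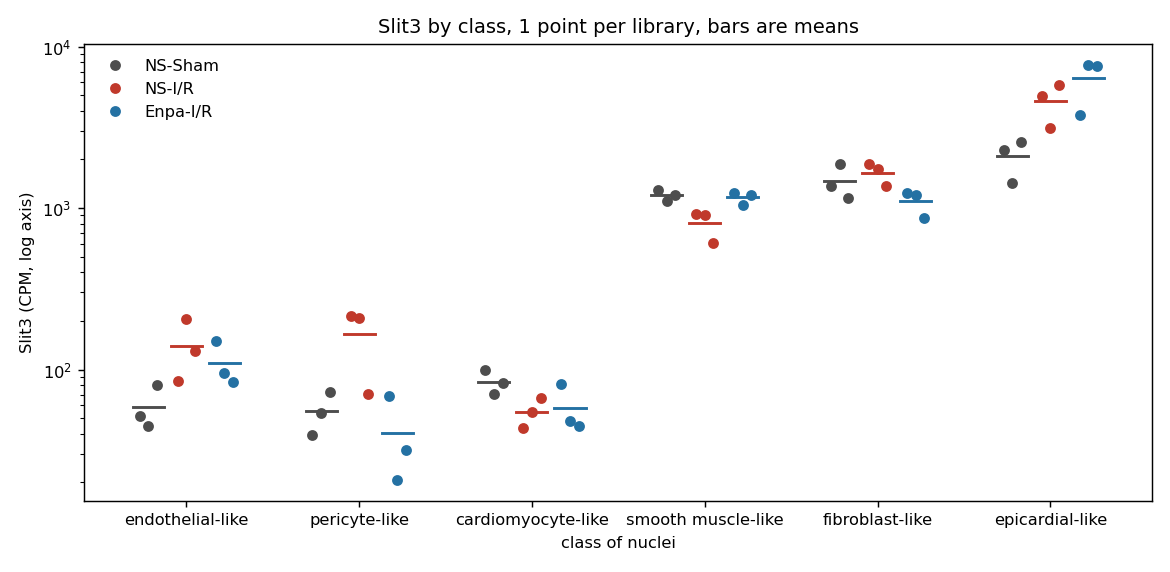
Slit3 level (plain CPM, log axis) in 6 classes of nuclei by group, with 1 point per heart and a bar at the mean of 3 hearts. In pericyte-like nuclei NS-I/R replicates 1 and 2 stand at 216 and 209 plain CPM, while replicate 3, at 70.8 plain CPM, lies among the sham hearts.

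In fibroblast-like nuclei Slit3 did not follow Slit2. It stood at 1483, 2020 and 1226 CPM in NS-Sham, at 1841, 1666 and 1299 CPM in NS-I/R, and at 1200.5, 1165 and 866 CPM in Enpa-I/R. Sham and NS-I/R hearts overlapped fully, while every Enpa-I/R heart lay below every other heart. The log2 difference was 0.02 between NS-I/R and NS-Sham (SE 0.19, edgeR adjusted p 0.937) and -0.57 between Enpa-I/R and NS-I/R (SE 0.19, edgeR adjusted p 0.0762). The second passed without NS-I/R replicate 3 (-0.70, edgeR adjusted p 0.00514) and by DESeq2 (adjusted p 0.0367). The clusters differed: plain pooled Slit3 in cluster 11 was 506, 894 and 937 CPM over the 3 groups, against 1731, 1851 and 1352 CPM in cluster 9.

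Pericyte-like nuclei, the mural cells of capillaries, had Slit3 at 41.8, 58.4 and 79.0 CPM in NS-Sham, at 208, 200 and 69.6 CPM in NS-I/R, and at 70.6, 21.0 and 33.8 CPM in Enpa-I/R. NS-I/R replicates 1 and 2 were far above every other heart, and replicate 3 was not. Slit3 rose by 1.43 in NS-I/R (SE 0.38, edgeR adjusted p 0.0105) and fell by 1.87 in Enpa-I/R against NS-I/R (SE 0.39, edgeR adjusted p 0.0143). It was 1 of 4 family members called in pericyte-like nuclei in each comparison, where 24.1% and 6.1% of all genes tested were called. Neither call was stable. The rise had edgeR adjusted p 0.0602 when NS-Sham replicate 1 was left out and 0.0549 when NS-I/R replicate 1 was, and DESeq2 gave 0.0773. The fall had 0.082 and 0.0624 without NS-I/R replicates 1 and 2, and 0.064 and 0.0717 without Enpa-I/R replicates 2 and 3 (edgeR adjusted p). With putative doublets kept, the differences were 0.76 and -1.16, with edgeR adjusted p 0.16 and 0.0881.

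The summed level of 8 fibroblast markers in the same pericyte-like nuclei was 277 to 335 UMIs per 100 nuclei over the sham hearts, 122 to 150 over NS-I/R hearts and 129 to 226 over Enpa-I/R hearts. By heart it was 150, 122 and 145 in NS-I/R replicates 1, 2 and 3. Its part in the Slit3 result was not tested. The 6 smooth muscle markers summed to 105 to 145, 112 to 144 and 167 to 196 UMIs per 100 nuclei, and no marker of either list was at 0.

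Endothelial-like nuclei carried Slit3 at 53.8, 45.9 and 83.2 CPM in NS-Sham, 84.4, 200 and 126 CPM in NS-I/R, and 151, 95.6 and 85.4 CPM in Enpa-I/R. All 6 injured hearts lay above all 3 sham hearts. Slit3 rose in NS-I/R by 1.19 (SE 0.31, edgeR adjusted p 0.0104), with edgeR adjusted p 0.0563 when NS-Sham replicate 2 was left out and 0.0551 when NS-I/R replicate 2 was. It was 1 of 4 members called in that class, where 33.9% of genes were called. Enpa-I/R and NS-I/R differed by -0.30 (edgeR adjusted p 0.548). Most of these UMIs came from cluster 21, whose markers are endocardial, the lining of the heart chambers: 1015 of the NS-I/R UMIs of Slit3 came from its 553 nuclei. Plain levels there were 217, 102 and 463 CPM in NS-Sham, 378, 882 and 414 CPM in NS-I/R and 606, 426 and 446 CPM in Enpa-I/R, which overlapped. Within that cluster the log2 difference between NS-I/R and NS-Sham was 1.10 (edgeR adjusted p 0.0822), and within cluster 5 it was -0.43 (edgeR adjusted p 0.426). Endocardial-like nuclei were 9.92%, 13.9% and 11.3% of the endothelial-like class over the groups in the order sham, NS-I/R, Enpa-I/R, and the part of that share in the class result was not tested.

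In smooth muscle-like nuclei Slit3 was 1435, 1231 and 1291 CPM in NS-Sham, 949, 915 and 635 CPM in NS-I/R, and 1320, 1072 and 1349 CPM in Enpa-I/R. Every NS-I/R heart lay below all others. The differences of -0.66 and 0.58 were not called (edgeR adjusted p 0.0736 and 0.295), in a class where 6.02% of genes were called in NS-I/R against NS-Sham and 0 in Enpa-I/R against NS-I/R; DESeq2 called 39 in the latter, and 805 had an unadjusted p under 0.05. Cardiomyocyte-like nuclei had Slit3 at 83.5 ± 12.7, 54.3 ± 10.5 and 59.1 ± 20.8 CPM, a log2 difference of -0.62 in NS-I/R that missed the threshold (edgeR adjusted p 0.0542). It passed under 7 alternatives, among them without NS-I/R replicate 3 (edgeR adjusted p 0.0173) and without Enpa-I/R replicate 1 (edgeR adjusted p 0.0189). Between Enpa-I/R and NS-I/R the Slit3 difference there was 0.13 and was not called (edgeR adjusted p 0.721). Within cardiomyocyte-like cluster 0 it was -1.49 and was called (edgeR adjusted p 0.0338), beside 2.88% of genes. Within cluster 1 it was -0.43 and was not called (edgeR adjusted p 0.436). A small cardiomyocyte-like cluster led by Fgf12, Kcnj3, Tbx5, Nppa and Myl4, genes that are high in atrial muscle, had plain pooled Slit3 of 1367, 1163 and 1356 CPM from 66, 62 and 134 nuclei.

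Among the receptors, Robo1 (ENSMUSG00000022883, chromosome 16) accompanied Slit2 in fibroblast-like nuclei. It stood at 417, 430 and 403 CPM in NS-Sham, 137, 135 and 207 CPM in NS-I/R, and 263, 305 and 289 CPM in Enpa-I/R, with no overlap between groups. Robo1 fell by 1.38 on the log2 scale in NS-I/R (SE 0.16, edgeR adjusted p 2.9e-05) and rose by 0.84 in Enpa-I/R against NS-I/R (SE 0.15, edgeR adjusted p 0.0146). In fibroblast-like nuclei 3 of the 4 tested members were called in NS-I/R against NS-Sham, beside 46.7% of all genes, and 2 of 4 in Enpa-I/R against NS-I/R, beside 9.65%.

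**Figure D3:**
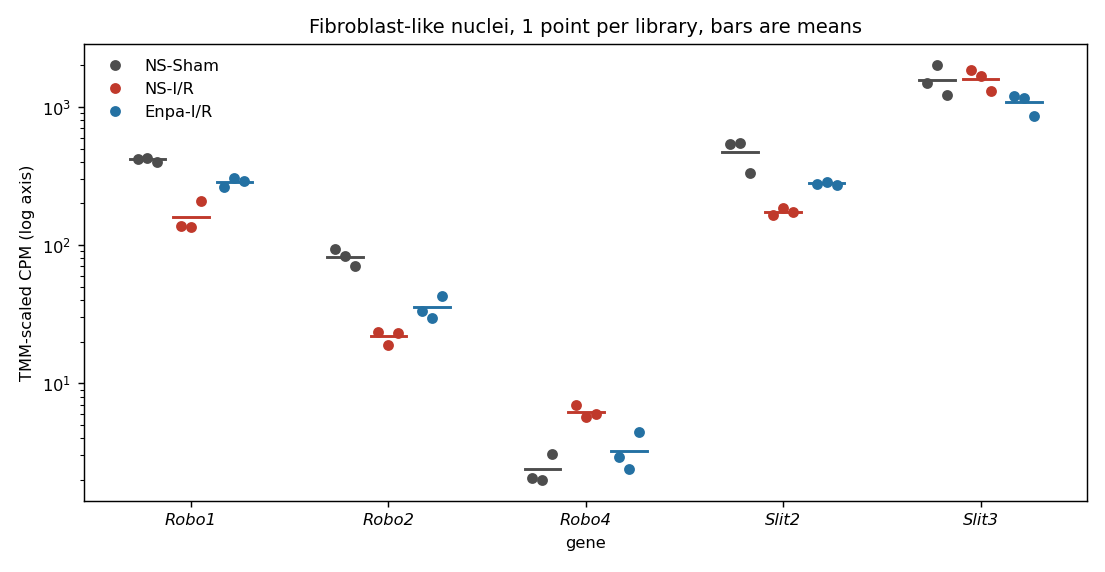
Levels of the 5 genes in fibroblast-like nuclei (TMM-scaled CPM, log axis) by group, with 1 point per heart and a bar at the mean. Robo1, Robo2 and Slit2 are lowest in the 3 NS-I/R hearts, and Slit3 is lowest in the 3 Enpa-I/R hearts.

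The fall of Robo1 in NS-I/R passed every alternative tried, including within the clusters that could be fitted, by 0.90 in cluster 9 and by 1.12 in cluster 11. Cluster 10, which held 57.9% of the NS-I/R nuclei of this class, had only 8 sham nuclei and could not be fitted. Plain pooled Robo1 in cluster 11 was 665, 328 and 467 CPM over the groups in the order sham, NS-I/R, Enpa-I/R, and in cluster 9 it was 359, 206 and 281 CPM. The Enpa-I/R call was less steady: edgeR adjusted p was 0.0609 and 0.0588 without NS-I/R replicates 1 and 2, and 0.0536, 0.0716 and 0.0631 without Enpa-I/R replicates 1, 2 and 3. Without NS-I/R replicate 3, the NS-I/R heart with the highest Robo1, the difference was 1.08 (edgeR adjusted p 1.8e-06). Within clusters 9 and 11 the differences of 0.52 and 0.55 were not called (edgeR adjusted p 0.0937 and 0.2).

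Pericyte-like nuclei also carried Robo1, at 239, 263 and 178 CPM in NS-Sham, 155, 121 and 245 CPM in NS-I/R, and 223, 245 and 259 CPM in Enpa-I/R. Again NS-I/R replicate 3 lay apart from replicates 1 and 2, which were below every other heart. With all hearts, the differences of -0.39 and 0.47 were not called (edgeR adjusted p 0.188 and 0.184). Without NS-I/R replicate 3 they were -0.75 and 0.82, with edgeR adjusted p 0.00142 and 0.00109. In smooth muscle-like nuclei and in the lymphatic class Robo1 averaged 79.2 and 66.6 CPM in NS-Sham with wide spread, and no difference was called (edgeR adjusted p 0.0905 to 0.618). In endothelial-like and cardiomyocyte-like nuclei its group means were at most 10.9 and 4.86 CPM. Schwann-like nuclei, the glia of cardiac nerves, had plain Robo1 of 24.0 and 92.2 CPM in NS-I/R replicates 1 and 2 and 1028 CPM in replicate 3, which came from 133 UMIs in 28 nuclei.

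Robo2 (ENSMUSG00000052516, chromosome 16), the receptor chosen for its values, had 114, 122 and 114 CPM in endothelial-like nuclei of the sham hearts, 9.18, 6.22 and 11.4 CPM in NS-I/R, and 35.8, 35.2 and 49.9 CPM in Enpa-I/R. The groups did not overlap, which follows from how the gene was chosen. The fitted differences were -3.70 (SE 0.20) and 2.16 (SE 0.21) on the log2 scale, and leaving out any 1 heart kept them between -3.93 and -3.49 and between 1.96 and 2.39. Nuclei with a Robo2 UMI after thinning every nucleus to 1000 UMIs were 7.42% ± 0.61 of sham nuclei, 0.665% ± 0.345 of those of NS-I/R and 2.21% ± 1.28 of those of Enpa-I/R. In pericyte-like nuclei, which have little Robo2, the shares were 0.682%, 0.537% and 0.600%, so that the NS-I/R share in endothelial-like nuclei was close to that level. Without thinning the endothelial shares were 9.58%, 1.04% and 3.31%, at median depths of 1784, 1683 and 1738 UMIs.

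**Figure D4:**
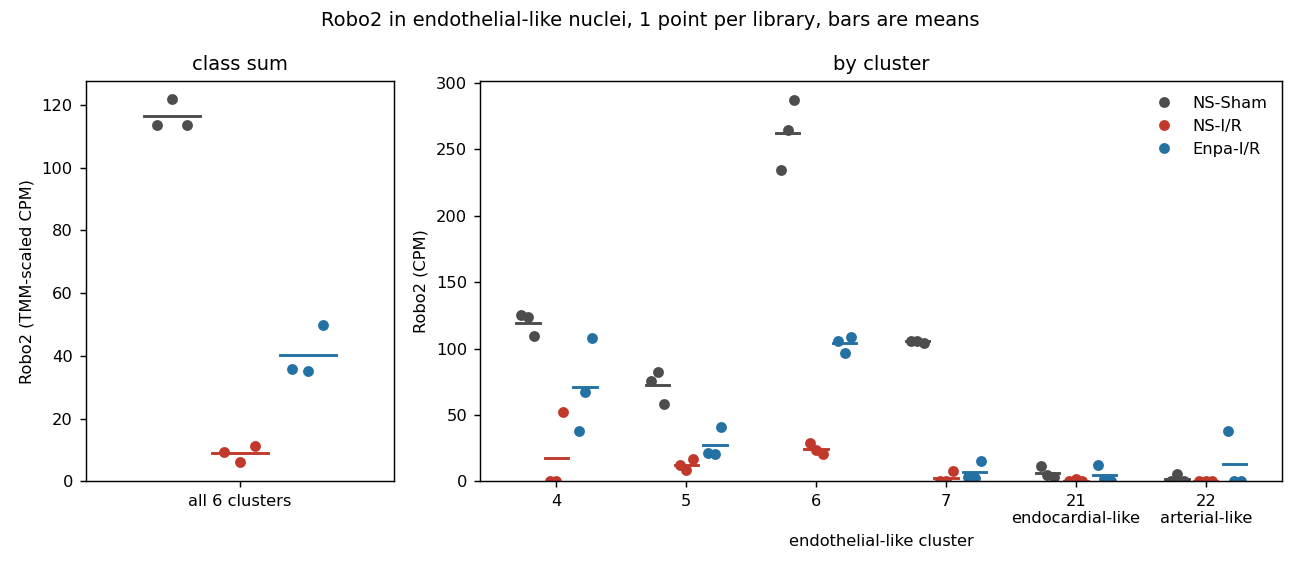
Robo2 in the summed endothelial-like class (left, TMM-scaled CPM) and in each of its 6 clusters (right, plain CPM) by group, with 1 point per heart and a bar at the mean. Cluster 6 has the highest mean in all 3 groups, and the endocardial-like cluster 21 stays at or below 12.5 CPM in every heart.

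Robo2 was uneven among endothelial-like nuclei even in sham hearts. Cluster 6 had its highest marker score for veins (mean log2 1.21, next endocardial at 0.26) but did not meet the rule for a name. Its plain Robo2 levels were 234, 264 and 287 CPM in NS-Sham, 28.8, 23.4 and 20.8 CPM in NS-I/R, and 106, 96.9 and 109 CPM in Enpa-I/R. Cluster 5 had 75.9, 82.5 and 58.3 CPM, then 12.6, 8.19 and 16.7 CPM, then 21.0, 20.7 and 40.6 CPM. Cluster 7, led by Sh2d5, Pgf and Tnc, had 105 to 106 CPM in the sham hearts, 0, 0 and 8.08 CPM in NS-I/R, and 3.61, 2.58 and 14.9 CPM in Enpa-I/R. The level in cluster 7 was thus far from the sham level in both injured groups, while cluster 6 in Enpa-I/R stood between. Endocardial-like cluster 21 gave 10, 1 and 12 Robo2 UMIs in the 3 groups and arterial-like cluster 22 gave 1, 0 and 7.

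The clusters themselves were present in very different shares. Cluster 4 held 46.3% of the endothelial-like nuclei of sham hearts, 2.03% of those of NS-I/R and 7.81% of those of Enpa-I/R, whereas cluster 7 held 7.80%, 34.6% and 20.1%. With only 17, 6 and 58 nuclei in the NS-I/R hearts, cluster 4 could not be fitted, though it held the largest share of sham nuclei. Pooled over hearts, Robo2 was lower in NS-I/R than in NS-Sham in all 6 clusters. Inside clusters, the fitted Robo2 differences between NS-I/R and NS-Sham were -2.61, -3.51 and -5.31 in clusters 5, 6 and 7, and those between Enpa-I/R and NS-I/R were 1.17, 2.12 and 1.34. The 8 endothelial markers in the class summed to 1626 to 1922 UMIs per 100 nuclei over the sham hearts, 1750 to 1893 over NS-I/R hearts and 1531 to 2356 over Enpa-I/R hearts.

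Robo2 in fibroblast-like nuclei was 93.6, 83.2 and 70.0 CPM in NS-Sham, 23.6, 18.8 and 23.2 CPM in NS-I/R, and 33.4, 29.7 and 42.9 CPM in Enpa-I/R, with no overlap. The fitted differences were -1.91 (SE 0.17) and 0.69 (SE 0.18). Inside clusters 9 and 11 the differences between Enpa-I/R and NS-I/R were 0.35 (SE 0.30) and -0.02 (SE 0.38). These standard errors are too wide to tell whether the higher class level in Enpa-I/R was present inside either cluster. Elsewhere Robo2 was scarce: it passed the low-count filter only in endothelial-like, fibroblast-like and cardiomyocyte-like nuclei, with group means of 1.16 to 1.97 CPM in the last.

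Robo4 (ENSMUSG00000032125, chromosome 9), the endothelial receptor, did not share the order of Robo2. Endothelial-like nuclei held 174, 137 and 160 CPM in NS-Sham, 243, 242 and 146 CPM in NS-I/R, and 139, 142 and 160 CPM in Enpa-I/R. NS-I/R replicates 1 and 2 stood above all other hearts, and replicate 3 lay among them. The differences of 0.43 and -0.52 were not called with all 9 hearts (edgeR adjusted p 0.0752 and 0.0894). Leaving out NS-I/R replicate 3, the NS-I/R heart that differed from the other 2, gave 0.63 and -0.72 (edgeR adjusted p 0.00047 and 0.000463). This shows only the dependence on that heart. Within cluster 6 Robo4 rose in NS-I/R by 0.94 (edgeR adjusted p 0.00234), from plain levels of 120, 103 and 93.9 CPM to 249, 232 and 168 CPM, and Enpa-I/R stood at 114, 124 and 148 CPM. There all 3 NS-I/R hearts lay above all others, and the difference between Enpa-I/R and NS-I/R was not called (-0.71, edgeR adjusted p 0.0623). In clusters 5, 7, 21 and 22 the differences between NS-I/R and NS-Sham were 0.34, 0.44, 0.53 and 0.53, and none was called (edgeR adjusted p 0.224 to 0.605).

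Lymphatic endothelial-like nuclei had Robo4 at 152, 102 and 123 CPM in NS-Sham, 261, 226 and 105 CPM in NS-I/R, and 80.5, 114 and 112 CPM in Enpa-I/R. The pattern over hearts was that of the blood endothelium, with NS-I/R replicate 3 again low. No difference was called with all hearts (edgeR adjusted p 0.191 and 0.158), in a class where 13.8% and 1.53% of genes were called, and both were without NS-I/R replicate 3, at 0.98 and -1.27 (edgeR adjusted p 0.0192 and 0.00774).

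Low Robo4 counts outside the endothelium were also higher in NS-I/R in fibroblast-like and macrophage-like nuclei, but not in every class. Pooled over hearts and from few UMIs, they went from 2.69 to 2.45 UMIs per 100 nuclei in pericyte-like nuclei. The same values were 2.87 and 1.23 in smooth muscle-like, 2.99 and 2.48 in Schwann-like and 3.07 and 3.28 in cardiomyocyte-like nuclei. In fibroblast-like nuclei Robo4 rose from 2.38 ± 0.616 to 6.22 ± 0.609 CPM, by 1.43 on the log2 scale (SE 0.36, edgeR adjusted p 0.00635), and with putative doublets kept the difference was 0.68 (edgeR adjusted p 0.0846). In Enpa-I/R it was 3.25 ± 1.04 CPM, a difference of -0.93 that was not called (edgeR adjusted p 0.0854). Nuclei with a Robo4 UMI after thinning were 0.177%, 0.674% and 0.264%, at or below the 0.914% of pericyte-like nuclei in NS-I/R. The 8 endothelial markers in fibroblast-like nuclei summed to 155 to 181 UMIs per 100 nuclei over the sham hearts, 114 to 134 over NS-I/R hearts and 116 to 161 over Enpa-I/R hearts. Most of that sum was Tek, which went from 107 to 53.9 UMIs per 100 nuclei and stood at 77.8% of its endothelial level in sham fibroblast-like nuclei. Of the other 7 markers, 6 were higher in NS-I/R than in sham when hearts were pooled, as Robo4 was, among them Cdh5 (2.43 to 4.74 UMIs per 100 nuclei), Flt1 (11.7 to 17.6) and Egfl7 (9.51 to 13.5), and Kdr was lower (4.36 to 3.27). The part of endothelial RNA in the Robo4 result was not tested.

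In macrophage-like nuclei Robo4 rose from 5.62 ± 2.07 to 14.7 ± 3.37 CPM (1.50 on the log2 scale, SE 0.47, edgeR adjusted p 0.0226), in a class where 35.1% of genes were called, and stood at 5.96 ± 2.03 CPM in Enpa-I/R (edgeR adjusted p 0.0673 against NS-I/R, where 6.33% of genes were called). There the endothelial markers moved with it, from 33.8 to 52.2 UMIs per 100 nuclei over the sham hearts to 77.5 to 153 over NS-I/R hearts and 72.0 to 113 over Enpa-I/R hearts, with none of the 8 at 0, and their part in the result was not tested. The call was lost in 6 of 16 alternatives: by DESeq2 (adjusted p 0.0804), with a mitochondrial limit of 20% (0.81, edgeR adjusted p 0.193), with putative doublets kept (0.78, edgeR adjusted p 0.0952), without either of NS-Sham replicates 1 and 2 (edgeR adjusted p 0.0686 and 0.141) and when NS-I/R replicate 1 was left out (0.0896). Macrophage-like nuclei also changed cluster, with cluster 13 holding 6.19% of them in sham hearts, 51.5% in NS-I/R hearts and 37.8% in Enpa-I/R hearts. Neutrophil-like nuclei, which were almost absent from sham hearts, had Robo4 at 41.5% of the endothelial level per nucleus in NS-I/R, and the 8 endothelial markers stood at 17.0% (Emcn) to 43.0% (Egfl7) of theirs.

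The changes of Robo1, Robo4, Slit2 and Slit3 between NS-I/R and NS-Sham were also compared between classes of nuclei from the same hearts, in 24 tests over 6 pairs of classes, and 5 were called by limma. The change of Slit3 was higher in endothelial-like than in cardiomyocyte-like nuclei by 1.74 on the log2 scale (limma adjusted p 0.00484), for a pair of classes in which 16.9% of genes were called, and higher in pericyte-like than in cardiomyocyte-like nuclei by 1.90 (limma adjusted p 0.0303, beside 13.8%). The change of Robo1 in fibroblast-like nuclei differed from that in pericyte-like nuclei by -0.99 (limma adjusted p 0.0143, beside 8.64%). The other called differences, of Robo1 and Robo4, set fibroblast-like against cardiomyocyte-like nuclei, beside 22.9%. For endothelial-like against fibroblast-like and against pericyte-like nuclei no member was called, beside 14.9% and 3.58% of genes. In Enpa-I/R against NS-I/R no member was called in any pair by limma, where 0% of genes were called in 3 pairs and 0.31%, 0.45% and 0.592% in the others; 5 of the 24 tests had an unadjusted p under 0.05.

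The other genes of the Slit and Robo pathway were taken from a list of 24, and 18 to 22 of them could be tested in each main class. In NS-I/R against NS-Sham 13 of 22 were called in cardiomyocyte-like nuclei (8 higher, 5 lower), 10 of 19 in endothelial-like nuclei (5 and 5), 11 of 20 in fibroblast-like nuclei (7 and 4) and 7 of 18 in pericyte-like nuclei (4 and 3). These shares of 59.1%, 52.6%, 55.0% and 38.9% stood beside 45.3%, 33.9%, 46.7% and 24.1% of all genes tested. The list's median log2 difference was 0.23, -0.03, -0.04 and -0.06, and the median of all genes tested was 0.01, 0.02, -0.01 and 0.02.

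Enah, an actin regulator that binds Robo receptors, was the pathway gene that rose in 3 of the 4 classes. In cardiomyocyte-like nuclei it went from 418 to 1925 CPM (2.20, edgeR adjusted p 3.96e-05), in fibroblast-like nuclei from 58.9 to 210 CPM (1.83, edgeR adjusted p 1.04e-06) and in pericyte-like nuclei from 22.2 to 108 CPM (2.20, edgeR adjusted p 9.55e-05). Within the cardiomyocyte-like clusters with enough nuclei to be fitted, the difference was 0.71 in cluster 0 (edgeR adjusted p 0.0237) and 0.0061 in cluster 1 (edgeR adjusted p 0.991). In Enpa-I/R Enah fell against NS-I/R in cardiomyocyte-like nuclei, to 1214 CPM (edgeR adjusted p 0.0383), and in fibroblast-like nuclei, to 154 CPM (edgeR adjusted p 0.0345). The cardiomyocyte call was lost in 12 of 20 alternatives, and the difference was 0.34 and 0.46, neither called, within clusters 0 and 1 (edgeR adjusted p 0.398 and 0.197). Gpc1, a heparan sulfate proteoglycan that binds Slit, fell in all 4 classes in NS-I/R, by 1.51 in cardiomyocyte-like nuclei, by 1.13 in the endothelial-like class and by 1.04 in both fibroblast-like and pericyte-like nuclei (edgeR adjusted p 0.00227, 0.00638, 0.00443 and 0.0459). The pericyte call of Gpc1 was lost in 12 of 18 alternatives. Ext1, which builds the heparan sulfate chain, fell in cardiomyocyte-like nuclei from 752 to 242 CPM and rose to 377 CPM in Enpa-I/R (edgeR adjusted p 4.04e-05 and 0.0211). Srgap2, a GTPase-activating protein bound by Robo, fell in endothelial-like nuclei from 770 to 462 CPM and rose to 650 CPM in Enpa-I/R (edgeR adjusted p 0.00113 and 0.0462). The kinase Pak1 rose in fibroblast-like nuclei from 17.2 to 157 CPM (edgeR adjusted p 3.17e-05), but within clusters 9 and 11 its differences of -0.11 and 0.26 were not called (edgeR adjusted p 0.814 and 0.805).

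In Enpa-I/R against NS-I/R, 6 of 22 pathway genes were called in cardiomyocyte-like nuclei, beside 19% of all genes, and 2 of 19, 2 of 20 and 2 of 18 in endothelial-like, fibroblast-like and pericyte-like nuclei, beside 6.06%, 9.65% and 6.1%. In pericyte-like nuclei these were Rac1, a small GTPase, at 92.7, 194 and 126 CPM over the 3 groups, and the adaptor Nck2, at 129, 75.9 and 135 CPM.

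Of 22 other guidance cues and receptors, 12 of 22 were called in cardiomyocyte-like nuclei (4 higher, 8 lower), 13 of 21 in endothelial-like nuclei (5 and 8), 14 of 20 in fibroblast-like nuclei (3 and 11) and 3 of 15 in pericyte-like nuclei (1 and 2) in NS-I/R against NS-Sham. These shares of 54.5%, 61.9%, 70.0% and 20.0% stood beside 45.3%, 33.9%, 46.7% and 24.1% of all genes tested, so that the pericyte share was below that of all genes. Sema3a, a secreted semaphorin, rose in endothelial-like nuclei from 27.5 to 148 CPM and fell to 53.7 CPM in Enpa-I/R (edgeR adjusted p 5.19e-05 and 0.0112), the reverse of the order of Robo2 there. Epha4, an ephrin receptor, was 238, 88.5 and 141 CPM over the groups in endothelial-like nuclei, and both steps were called (edgeR adjusted p 0.000117 and 0.04995). In fibroblast-like nuclei the semaphorin co-receptor Nrp1 went from 455 to 180 CPM and to 276 CPM in Enpa-I/R (edgeR adjusted p 4.28e-05 and 0.0319), the order seen for Robo1 and Slit2. Sema6a fell in fibroblast-like nuclei from 266 to 75.9 CPM (edgeR adjusted p 6.65e-07). Each Enpa-I/R call of a list gene named here, in the pathway or among the other cues, was lost in 5 to 18 of the alternatives run.

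All members but Robo4 are long genes. In the GENCODE vM21 annotation Robo1 spans 738 kb, Slit3 587 kb, Robo2 520 kb and Slit2 325 kb, against 13.2 kb for Robo4. Slit2 overlaps 2 other counted genes, 1 of them on the opposite strand, and Slit3 overlaps 1, and whether reads there were split by strand is not given in the sources used here. The median log2 difference between NS-I/R and NS-Sham over tested genes of more than 500 kb was -0.38 in endothelial-like, -0.56 in fibroblast-like, -0.51 in pericyte-like and -0.37 in cardiomyocyte-like nuclei, and over genes under 10 kb it was 0.06, 0.06, 0.16 and -0.03. Among genes over 500 kb in fibroblast-like nuclei the quartiles were -1.35 and -0.002, and 50.8% of these genes were called lower. Robo1 there, at -1.38, was near the lower quartile, and Slit3, at 0.02, was near the upper one. Slit3 in pericyte-like nuclei, at 1.43, was above the upper quartile of its length class, -0.09. In Enpa-I/R against NS-I/R, 23.3% of genes over 500 kb in fibroblast-like nuclei were called higher. For genes of 200 to 500 kb the share was 12.3%, and for genes under 10 kb it was 1.94%. Robo1 and Slit2 there, at 0.84 and 0.68, were above the upper quartiles of their length classes, 0.58 and 0.38. Slit3, at -0.57, was below the lower quartile of its own, -0.35. The part of gene length in the members' results was not tested.

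**Figure D5:**
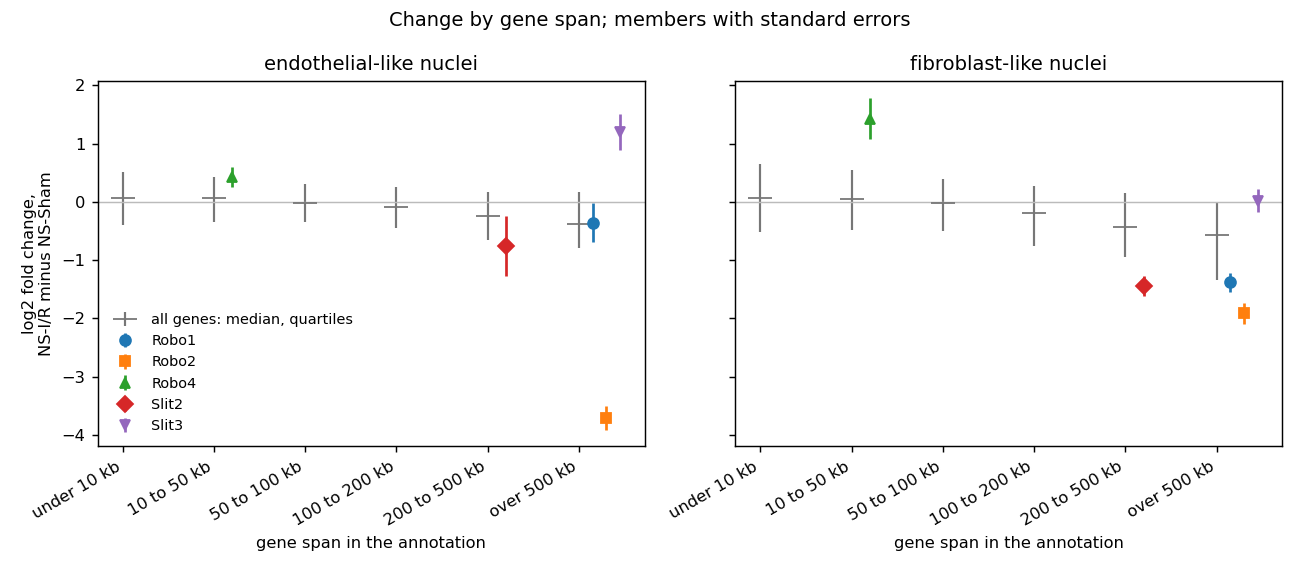
Log2 difference between NS-I/R and NS-Sham by class of gene span in endothelial-like (left) and fibroblast-like nuclei (right); grey marks are the median and quartiles of all genes tested, and symbols are the members with their standard errors. The grey medians of genes over 500 kb are -0.38 and -0.56, and Robo2, which was chosen for this value, is drawn at -3.70 in endothelial-like nuclei.

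The genes whose levels were most like each member's were sought over 63 points, 9 libraries in each of 7 classes, among 11050 genes. For Robo4 these were Emcn, Shank3 and Nova2 (Pearson r of log2 CPM 0.955, 0.946 and 0.943). For Robo1 they were Ror2, Rem1 and Mrc2 (0.863, 0.851 and 0.847), for Slit3 Loxl1, Ptgis and Crispld2 (0.866, 0.865 and 0.857) and for Slit2 Bmper, Asap3 and Ccbe1 (0.809, 0.795 and 0.787). For Robo2 the values were lower, with Myrip, Rnf165, Bace2, Cd34 and Papss2 at 0.764 to 0.742. Among the members themselves the closest pair was Slit2 and Slit3 at 0.592, followed by Robo1 and Slit2 at 0.517. These points share libraries and differ mostly by cell class, so the values describe where the genes are found.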

How the data were processed

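Per the file headers and labels, each deposited matrix holds raw UMI counts that the authors made with Cell Ranger 8.0.0 from 10x 3' v3.1 libraries; the submitters' processing notes name Cell Ranger 6.1.1, Seurat, GRCm39 and GRCh38, so that the build, the annotation and the counting of introns are not settled by the sources used here. Of the gene IDs, 32158 (99.6%) occur in GENCODE vM21 (GRCm38), which gave gene spans. How the authors chose barcodes is not given in the sources used here.

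Nuclei with at least 500 genes and at most 5% mitochondrial UMIs were kept. Barcodes with the highest Scrublet scores were removed, 0.8% per 1000 barcodes (133 to 538 per library), since Scrublet's own threshold called 0 to 308. Clustering (scanpy 1.11.5, 2000 variable genes, 30 components, Leiden resolution 1) left out the 5 genes and both gene lists. A cluster was named when at least 3 markers of a type were detected in 5% of its nuclei at 2 times the median cluster level and led the next type by 0.5 in mean log2. The members, lists and thresholds were chosen with earlier results of these data known.

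Counts were summed per library and class for the 7 classes in which each library had 25 nuclei or more. Each class had 1 edgeR 4.0.16 fit over all 9 libraries, with filterByExpr, TMM scaling and the quasi-likelihood F test, and p-values were adjusted by Benjamini-Hochberg over all genes tested (threshold 0.05). Changes were compared between classes with limma 3.58.1 on within-library differences of log2 CPM, in 24 tests per comparison. Named list genes are up to 3 called genes per list, class and comparison with the largest change and a mean of at least 10 CPM; fewer are printed. On simulated counts, edgeR called the following shares of 200 genes that had been given a log2 change of 1: 76.5% and 74% in endothelial-like, 62% and 59.5% in fibroblast-like, 49% and 45.5% in pericyte-like and 44.5% and 52% in cardiomyocyte-like nuclei for NS-I/R against NS-Sham and Enpa-I/R against NS-I/R. Alternatives were DESeq2 1.42.0 and its size factors, no low-count filter, 6 libraries, the replicate block, leaving out each library in turn, at most 20% mitochondrial UMIs, at least 1000 genes, doublets kept and Leiden resolution 2; fits within single clusters were chosen after seeing the data. Nuclei share a heart, so p-values rest on 3 hearts per group.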

Additional observations from a re-analysis of the deposited data

Results flagged for a closer look

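For 5 results the change between NS-I/R and NS-Sham differed between classes of nuclei from the same hearts, by a limma test of the difference itself with Benjamini-Hochberg adjustment over all genes tested in both classes. There were 48 such tests, 24 in each comparison, over 4 members and 6 pairs of classes.

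The log2 difference of Slit3 was higher in endothelial-like than in cardiomyocyte-like nuclei by 1.74 (limma adjusted p 0.00484, with 16.9% of genes called for that pair), and higher in pericyte-like than in cardiomyocyte-like nuclei by 1.90 (limma adjusted p 0.0303, with 13.8% called). In the class sums Slit3 thus had opposite signs in cardiomyocyte-like nuclei and in both vascular classes, where its own differences were -0.62, 1.19 and 1.43. The first was not called, and both vascular calls were lost in some alternatives. The sign was not kept inside every cluster. It was 0.63 in cardiomyocyte-like cluster 0 and -0.43 in endothelial-like cluster 5, neither called (edgeR adjusted p 0.186 and 0.426).

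For Robo1 the difference between fibroblast-like and pericyte-like nuclei was -0.99 (limma adjusted p 0.0143, with 8.64% called), and that between fibroblast-like and cardiomyocyte-like nuclei was -1.56 (limma adjusted p 0.0175, with 22.9% called). Robo1 was at most 4.86 CPM in cardiomyocyte-like nuclei, so the second pair sets a class with much Robo1 beside one with little.

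For Robo4 the difference between fibroblast-like and cardiomyocyte-like nuclei was 1.23 (limma adjusted p 0.0124, with 22.9% called), and its mean level was at most 6.22 CPM in the first and 2.98 CPM in the second.

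In Enpa-I/R against NS-I/R the smallest of the 24 limma adjusted p was 0.086, for Slit3 in pericyte-like minus cardiomyocyte-like nuclei at -1.97, and 5 of the 24 had an unadjusted p under 0.05.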

How the results depend on the processing

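Of the member differences that edgeR called, 7 in NS-I/R against NS-Sham and 3 in Enpa-I/R against NS-I/R, only that of Robo1 in fibroblast-like nuclei in the first comparison kept its direction and stayed past the threshold under every alternative run. Of the list genes named, 7 of 24 and 0 of 16 did, and 2 of the 5 differences between classes. Where a value below differs from that in the report, the cause was not tested.

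Fits within single clusters, added after the data were seen, turned the sign of some differences. For Slit3 they gave 0.63 (NS-I/R against NS-Sham) and -1.49 (Enpa-I/R against NS-I/R) in cardiomyocyte-like cluster 0. Of the Slit3 values that turned within clusters, only the -1.49 was called (edgeR adjusted p 0.0338, beside 2.88% of genes). The fits also gave Slit3 -0.43 in both cardiomyocyte-like cluster 1 (Enpa-I/R) and endothelial-like cluster 5 (NS-I/R). In Enpa-I/R they gave it 0.030 in endothelial-like cluster 6 and 0.067 in fibroblast-like cluster 11, where Robo2 gave -0.022. For the list genes they gave 0.074 for Epha4 in cardiomyocyte-like cluster 1, -0.11 for Pak1 in fibroblast-like cluster 9 and 0.064 for Srgap2 in endothelial-like cluster 22 (all in NS-I/R), and 0.34 and 0.46 for Enah in cardiomyocyte-like clusters 0 and 1 (Enpa-I/R). Robo2 within endothelial-like clusters 5 and 7 moved to -2.61 and -5.31 in NS-I/R and to 1.17 and 1.34 in Enpa-I/R without a change of sign. With a minimum of 1000 genes Slit3 in cardiomyocyte-like nuclei was -0.35 in Enpa-I/R, and with doublets kept Slit3 in lymphatic endothelial-like nuclei was -0.50 in NS-I/R. None of the uncalled Slit3 and Slit2 differences that turned when a heart was left out had passed with all 9. Their ranges were -0.20 to 0.29 in cardiomyocyte-like (Slit3, Enpa-I/R), -0.59 to 0.080 in endothelial-like (Slit3, Enpa-I/R), -0.13 to 0.25 in fibroblast-like (Slit3, NS-I/R), -1.08 to 1.59 and -3.24 to 0.41 in lymphatic endothelial-like (Slit3, NS-I/R and Enpa-I/R) and -0.47 to 0.035 in pericyte-like nuclei (Slit2, NS-I/R).

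The number of genes called in Enpa-I/R against NS-I/R depended on the hearts. With all 9 it was 2659 in cardiomyocyte-like, 755 in endothelial-like, 1294 in fibroblast-like, 84 in lymphatic endothelial-like, 657 in macrophage-like, 571 in pericyte-like and 0 in smooth muscle-like nuclei. Leaving out 1 heart gave, in that order, 244 to 6404, 93 to 3627, 22 to 5336, 13 to 325, 232 to 2147, 53 to 2424 and 0 to 400. In NS-I/R against NS-Sham leave-one-out counts were 478 to 945 in lymphatic endothelial-like, 1418 to 3370 in pericyte-like and 148 to 939 in smooth muscle-like nuclei, against 758, 2254 and 422 with all hearts. The highest count always came without NS-I/R replicate 3. The lowest came without Enpa-I/R replicate 3 in fibroblast-like, endothelial-like and cardiomyocyte-like nuclei, and without NS-I/R replicate 1 in macrophage-like nuclei, in pericyte-like nuclei and, for Enpa-I/R, in lymphatic endothelial-like nuclei. With only the 6 libraries of the comparison, Enpa-I/R counts were 516 (cardiomyocyte-like), 249 (endothelial-like), 136 (fibroblast-like), 44 (lymphatic endothelial-like) and 160 (pericyte-like), and the smooth muscle count in NS-I/R was 263. With no low-count filter they were 1979, 2650, 165, 1130, 1028 and 237 in endothelial-like, fibroblast-like, lymphatic, macrophage-like, pericyte-like and smooth muscle-like nuclei, and 849 for smooth muscle in NS-I/R. A mitochondrial limit of 20% gave 308 in pericyte-like and 2 in smooth muscle-like nuclei, and the latter had 39 by DESeq2 and 1 with Leiden resolution 2.

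Replicate numbers did not pair the hearts: deviations of same-numbered hearts correlated at -0.101 to 0.107, over 0.1 in 2 of 9 fibroblast-like pairs and in 0 of 9 in each other class checked. With the replicate block, 91 of 99 values kept their side of the threshold, 7 calls were lost and 1 was gained. Slit2 in cardiomyocyte-like nuclei was then -0.75 in NS-I/R (edgeR adjusted p 0.0585), Slit3 in fibroblast-like nuclei -0.58 in Enpa-I/R (edgeR adjusted p 0.0235), and the difference of Slit3 between pericyte-like and cardiomyocyte-like nuclei had a limma adjusted p of 0.0521. Robo4 in fibroblast-like and macrophage-like nuclei rested on few UMIs, 21 and 10 in NS-Sham and 80 and 52 in NS-I/R. Robo1 and Robo2 stood at a few CPM in cardiomyocyte-like nuclei, the deepest of the tested classes, with library medians of 6455 to 10466 UMIs.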

Other observations

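Macrophage-like nuclei carried a little Slit3, at 102, 60.4 and 66.2 CPM in NS-Sham, 37.0, 38.8 and 63.2 CPM in NS-I/R, and 45.5, 26.2 and 18.1 CPM in Enpa-I/R. The difference of -0.70 in NS-I/R was not called (edgeR adjusted p 0.0923), and it was -0.98 without NS-I/R replicate 3 (edgeR adjusted p 0.0181). T and NK lymphocyte-like nuclei gave 20 Robo4 UMIs from 92 nuclei in NS-I/R and 0 from 58 nuclei in NS-Sham and 49 in Enpa-I/R, at 46.4% of the endothelial level per nucleus in NS-I/R, where the 8 endothelial markers stood at 18.3% to 55.0% of theirs. The unnamed cluster led by Hspa1a held 14.7 Robo4 UMIs per 100 nuclei in NS-I/R.

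Among the other guidance cues and receptors, 7 of 15 tested in lymphatic endothelial-like nuclei were called by edgeR in NS-I/R against NS-Sham, 2 higher and 5 lower, beside 13.8% of all genes, and in macrophage-like nuclei 7 of 13 were called, 2 higher and 5 lower, beside 35.1%. Of the Slit and Robo pathway list, 11 of 21 were called in macrophage-like nuclei, 3 higher and 8 lower.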
